A study of Mus musculus with 24 samples.

Results

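The genes described are those of the voltage-gated and related cation channels, taken as every probe target whose gene symbol begins with Kcn (potassium channel subunits), with Cacna, Cacnb or Cacng (calcium channel subunits), or is that of a sodium channel alpha or beta subunit (Scn followed by a number and a or b) or of a pacemaker channel (Hcn followed by a number). These were 138 of 19962 targets, and all 138 symbols matched a RefSeq gene. By role they comprised 10 sodium alpha and 4 sodium beta subunits, 10 calcium alpha1, 4 alpha2delta, 4 beta and 8 gamma subunits, 40 pore subunits of voltage-gated potassium (Kv) channels with 12 auxiliary subunits, 15 inward rectifiers (Kcnj), 14 leak channels (Kcnk), 12 calcium- or sodium-activated potassium channel subunits, 4 pacemaker channels and Kcnrg, a regulator of potassium channels. They were matched by symbol, with no threshold on measured values, although the set was chosen with earlier results of these data known.

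The data came from the GeoMx digital spatial profiler, which hybridizes barcoded RNA probes to a tissue section, releases the barcodes from a selected region with light and counts them by sequencing. The sections were of frozen, perfusion-fixed mouse brain, with Tmem119 and Iba-1 as stains, and the title names macrophage Lyn kinase, sex and subarachnoid haemorrhage. Sample titles held IBA1 and TMEM119, followed by a plus sign in males only. The groups were MG-cKO males, BMM-cKO males, WT males, MG-cKO females, BMM-cKO females and WT females, 6 in all with 4 regions apiece. The genotype labels were MG-cKO, BMM-cKO and WT. They spell out neither the abbreviations nor the deleted allele, the Cre driver, the strain or the age, and the WT group is called WT-SAH in the design text, which puts it after haemorrhage as well. Sham regions were not used here. No label ties a region to an animal, so some regions of a group may share an animal, and every p-value below is then too small. Scan 2 held every male region and scan 3 every female one, and sex cannot be told apart from scan. By the library names, WT female region 1 shared a plate with the male regions and the other 11 female regions were on another plate, and without that region 28 channel genes rose and 3 fell in MG-cKO females, against 27 and 2 with it.

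With the step between the values of a region taken as 1 tag, each region held 1839154 to 10779960 barcode tags, and the median target had 87 to 506 tags, a counting error of 4.45% to 10.7%. Levels are given as the ratio to the negative probe value of the same region, which stands for probes that match no mouse transcript, so that a ratio near 1 is background. The labelled cell type was macrophage. Of 18 microglia and macrophage markers, 7 had a mean ratio above 1.5 over the 24 regions and none was listed at 0. Aif1, which encodes Iba-1, averaged 2.05, whereas Tmem119 averaged 0.810 and lay above 1.5 in no region. Of 12 neuron markers 11 were above 1.5, with Snap25 at 7.67 on average. Lyn itself lay between 0.878 and 1.22 in all 24 regions, at background, so its probe offered no check of the genotype labels.

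Voltage-gated sodium channels open on depolarization and carry the rising phase of the action potential, voltage-gated potassium channels repolarize the membrane, and calcium channels couple depolarization to transmitter release and transcription. Alpha or pore subunits form the ion path, while beta, alpha2delta, gamma and other auxiliary subunits set their trafficking and gating. Inward rectifiers and leak channels hold the resting potential and, in astrocytes, clear extracellular potassium. In the brain most of these genes are known from neurons, and a few, such as Kcnk13 and Kcna3, also from microglia.

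The promoter sequences of 3 channel genes are shown first, because Kcnab2 and Scn8a rose in MG-cKO females and Kcnj13 stood out in a single region. Each is 300 bases long, reaches from upstream of the start of the gene to just past it, and was read from RefSeq (mouse build GRCm38.p6), 5′ to 3′ on the strand of the gene. The intervals are chr4:152477500-152477799 on the minus strand for Kcnab2, chr15:100870395-100870694 on the plus strand for Scn8a and chr1:87394680-87394979 on the minus strand for Kcnj13. Capitals mark the GC box (GGGCGG) or the TATA motif (TATAAA) on either strand.
Kcnab2: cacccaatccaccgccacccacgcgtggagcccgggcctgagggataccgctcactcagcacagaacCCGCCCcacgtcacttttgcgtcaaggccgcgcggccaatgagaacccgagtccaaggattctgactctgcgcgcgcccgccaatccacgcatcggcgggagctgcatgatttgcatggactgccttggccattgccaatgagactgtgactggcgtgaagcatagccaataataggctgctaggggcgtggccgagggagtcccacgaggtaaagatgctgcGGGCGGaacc
Scn8a: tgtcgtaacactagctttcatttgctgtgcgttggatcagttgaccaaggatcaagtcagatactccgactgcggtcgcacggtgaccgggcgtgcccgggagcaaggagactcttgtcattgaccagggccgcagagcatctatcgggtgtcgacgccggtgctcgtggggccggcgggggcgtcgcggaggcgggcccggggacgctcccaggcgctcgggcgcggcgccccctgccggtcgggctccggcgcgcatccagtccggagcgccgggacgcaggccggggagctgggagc
Kcnj13: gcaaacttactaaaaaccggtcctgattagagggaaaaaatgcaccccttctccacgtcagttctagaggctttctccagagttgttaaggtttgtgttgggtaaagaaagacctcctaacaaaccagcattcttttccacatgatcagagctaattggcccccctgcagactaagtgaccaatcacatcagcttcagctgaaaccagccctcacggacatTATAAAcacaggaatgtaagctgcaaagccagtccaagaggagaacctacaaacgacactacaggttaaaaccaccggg
The Kcnab2 promoter held 2 GC boxes, 25 CpG dinucleotides and 62.7% G and C, and the Scn8a promoter held neither motif, 38 CpG dinucleotides and 70% G and C. The Kcnj13 promoter held 1 TATA motif, 5 CpG dinucleotides and 46% G and C. The medians over all promoters were 52.7% G and C and 7 CpG dinucleotides. Of the 138 channel genes, 101 had a promoter in the table used. A GC box was present in 50.5% of these 101, against 35.9% of all 27025 promoters, and TATAAA in 3.96%, against 14.2%. The motifs do not overlap each other in letters, and a match describes the sequence only. Kcnab3, which also rose, is named only.

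Most channel genes lay near background. Within a region the median channel gene had a ratio of 0.904 to 1.17, against 1.00 to 1.12 for the median target. Averaged over the 24 regions, 14 of the 138 were above 1.5 (10.1%, against 11.8% of all targets). A further 71 had means between 1 and 1.5, and 53 were below 1. No channel gene exceeded 1.5 in all 24 regions, 82 exceeded it in none, and 56 in between 1 and 23 regions. The threshold fell between Kcna2 (1.56) and Kcna3 (1.51) on its upper side and Kcnip2 (1.44) and Cacng8 (1.43) on its lower side. A ratio compares a gene with background and does not rank genes by transcript number, since probes differ.

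Group by group, the mean ratio exceeded 1.5 for 5 channel genes with MG-cKO, 2 with BMM-cKO and 8 in WT among males, and for 37 with MG-cKO, 12 with BMM-cKO and 10 in WT among females. The shares of all targets above 1.5 were 8.61%, 10.5% and 9.06% in the male groups in the same order, and 18.7%, 15.4% and 11.8% in the female groups. Thus 26.8% of channel genes passed in MG-cKO females, above the 18.7% of all targets, and 1.45% in BMM-cKO males, below the 10.5% of all targets. By single region the count was 44, 26, 42 and 40 with MG-cKO, 7, 12, 7 and 22 with BMM-cKO, and 13, 8, 7 and 11 in WT among females. In males it was 2, 8, 9 and 5 with MG-cKO, 2, 2, 2 and 0 with BMM-cKO, and 6, 11, 18 and 9 in WT. The counts of MG-cKO females lay above those of every other region, and those of BMM-cKO males reached at most the lowest of MG-cKO males. When a channel gene had to exceed 1.5 in every region of its group, 1, 0, 4, 26, 2 and 2 remained, in the order MG-cKO, BMM-cKO and WT males, then MG-cKO, BMM-cKO and WT females.

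**Figure D1:**
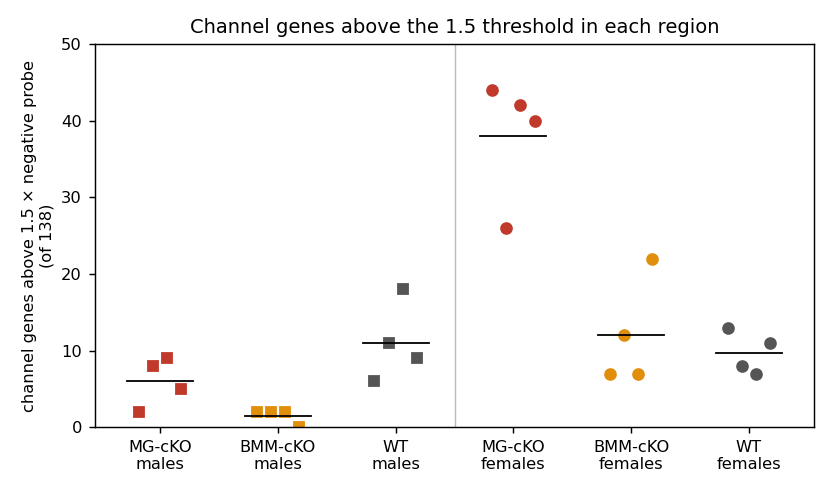
Number of the 138 channel genes above 1.5 times the negative probe (vertical axis) in each region, by group (horizontal axis, squares for males, circles for females, bar at the group mean). The MG-cKO female regions hold 26 to 44 such genes and the BMM-cKO male regions 0 to 2.

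By role, 4 of 10 calcium alpha1 subunits, 4 of 40 Kv pore subunits, 2 of 10 sodium alpha subunits and 1 each of the gamma, Kv auxiliary and inward rectifier classes were above 1.5 over all regions. None of the alpha2delta, calcium beta, leak, activated or pacemaker subunits was. The calcium alpha1 genes above it were Cacna1f, Cacna1c, Cacna1e and Cacna1a. Cacna1c, the pore of a widespread L-type channel, had the narrowest range of these 4 over the regions, 1.30 to 2.09. Among males its mean was 1.58 ± 0.131 with MG-cKO, 1.35 ± 0.0398 with BMM-cKO and 1.75 ± 0.102 in WT, and among females 1.93 ± 0.166 with MG-cKO, 1.80 ± 0.109 with BMM-cKO and 1.66 ± 0.119 in WT (SD, n = 4 each). Cacna1f, an L-type pore subunit known from the retina, averaged 1.70, and Cacna1e, the pore of the R-type channel, 1.67. Of the sodium alpha subunits, Scn8a averaged 1.61 and Scn2a 1.59. Kv subunits above the threshold included Kcnab2 (1.69), Kcnc1 (1.60), Kcna2 and Kcna3. Cacng7, an auxiliary subunit of AMPA receptors as well as a gamma family member, averaged 1.57.

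Kcnj10 averaged 1.77 over the 24 regions. It encodes the inward rectifier of astrocytes that buffers potassium, and it was the highest channel gene in 6 of the 24 regions. Among males its ratios were 1.51, 2.65, 2.28 and 1.65 with MG-cKO, 1.56, 1.84, 1.67 and 1.31 with BMM-cKO and 1.53, 1.98, 1.95 and 1.70 in WT. Among females they were 2.15, 2.19, 2.51 and 2.43 with MG-cKO, 1.32, 1.35, 0.875 and 2.27 with BMM-cKO and 2.26, 1.04, 1.46 and 1.06 in WT. The groups overlapped for Kcnj10 in males, and in BMM-cKO and WT females its regions spread from background to above 2. The summed ratio of 7 astrocyte markers was 12.4 to 21.5 with MG-cKO, 12.2 to 13.6 with BMM-cKO and 12.9 to 18.9 in WT among males, and 24.5 to 26.9 with MG-cKO, 13.8 to 21.7 with BMM-cKO and 12.1 to 16.2 in WT among females. None of these markers was listed at 0, and their part in the Kcnj10 level was not tested. In values that pool the RNA of many cells, as these do, fewer cells of a type and less RNA per cell cannot be told apart.

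Among channels known from microglia, a set chosen with their values seen, only Kcna3 of the 5 examined passed 1.5. Kcna3, a Kv pore subunit also known from lymphocytes, averaged 1.51, with group means from 1.39 ± 0.198 in MG-cKO males to 1.66 ± 0.0689 in MG-cKO females (SD, n = 4 each). Kcnk13, a leak channel of mouse microglia, averaged 1.09 and was above 1.5 in no region. Kcnj2, Kcnn4 and Kcnk6 averaged 0.820, 0.860 and 0.816, and none of these 3 exceeded 1.5 anywhere. The pacemaker channels Hcn2, Hcn3 and Hcn4 averaged 1.05, 0.694 and 0.838, and none of these 3 exceeded 1.5 in any region, so they were not detectable above that level at this depth.

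**Figure D2:**
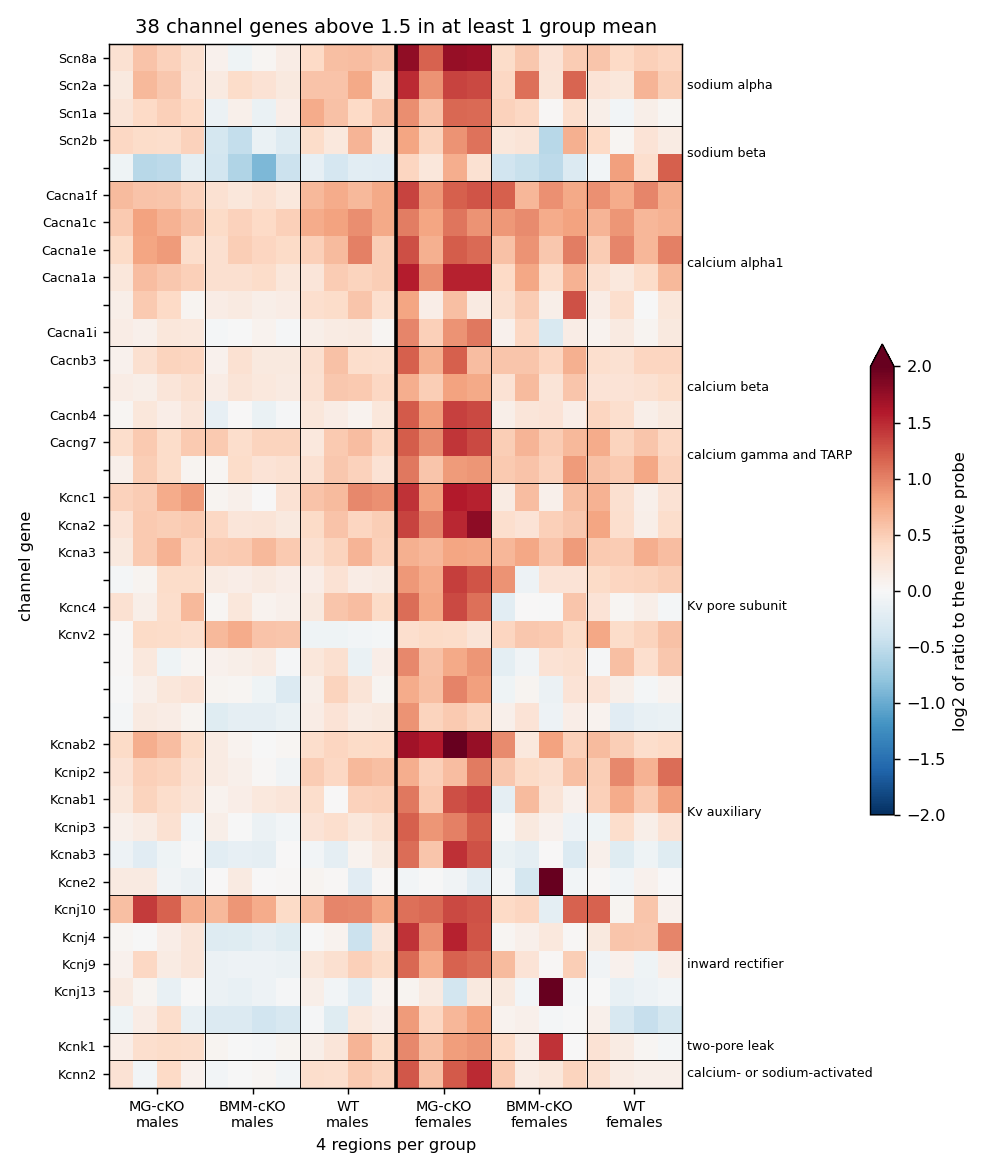
Level of 38 channel genes above 1.5 in at least 1 group mean (rows by role, not all labelled) in each of the 24 regions (columns), as log2 of the ratio to the negative probe, with colours cut at 2. The MG-cKO female columns are red over most rows, which follows from the choice of rows, since most of them passed 1.5 in that group. Kcnj13 and Kcne2 are high in 1 BMM-cKO female region.

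For tests between groups, 66 channel genes passed the filter on low values and 72 did not. The filter keeps targets by their mean over all regions, so a gene high in 1 group can pass through that group alone, and counts over all 138 without the filter are given beside those over the 66. Of the 66, 5 would not pass if the MG-cKO female regions were left out of that mean, Kcnab3, Kcnh7 and Kcnt1 among them, nor would Pex5l, 1 of 21 tested genes that encode partners of these channels. Leaving out WT males instead removed 4 channel genes, BMM-cKO females 3, BMM-cKO males and WT females 1 each, and MG-cKO males 0. Changes are log2 differences of limma fits, relative to the median target of each region, with an adjusted p under 0.05 as the call, and means are given ± SD over the 4 regions of a group. On the scale as deposited, which carries a separate factor for each group, the changes of all targets shift together, as given with the other alternatives.

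In MG-cKO females against WT females, 27 of the 66 tested channel genes rose and 2 fell. Over all tested targets 17.9% rose and 11.9% fell. Without the filter 40 of 138 rose and 4 fell, against 11% and 4.64% of all targets. The median change was 0.18 over the 66 and -0.02 over all tested targets. On the ratio scale, all 4 MG-cKO regions lay above all 4 WT regions for 41 of the 138 channel genes and below them for 2, against 16.9% and 1.8% of all targets.

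Several sodium channel subunits rose. Scn8a, the alpha subunit of nodes and axon initial segments, had ratios of 3.43, 2.26, 3.35 and 3.29 in MG-cKO females and 1.47, 1.31, 1.39 and 1.34 in WT females. The groups did not overlap, and the change was 1.01 ± 0.09 (SE, adjusted p = 2.58e-09, limma). Scn1a and Scn2a, alpha subunits of inhibitory and excitatory neurons, rose by 0.77 and 0.72 on the log2 scale, and Scn2b, a covalently linked beta subunit, by 0.46. In all, 3 of 6 tested sodium alpha subunits rose.

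The auxiliary and pore subunits of Kv channels formed the largest group. Kcnab2, a cytoplasmic beta subunit of Kcna channels, had ratios of 3.20, 3.00, 4.12 and 3.33 in MG-cKO females, against 1.55, 1.40, 1.28 and 1.31 in WT females. All MG-cKO regions were higher, with a change of 1.16 ± 0.11 (SE, adjusted p = 7.48e-09, limma). Its relative Kcnab3 had 2.18, 1.47, 2.75 and 2.43 in MG-cKO females, against 1.07, 0.849, 0.946 and 0.843 in WT females, where it was at background. Its log2 change was 1.08 ± 0.12 (SE), and it passed the filter only through the MG-cKO female regions. In the test without the filter the change was 1.11 (adjusted p = 6.43e-09, limma). Kcnip3, a calcium-binding subunit of Kcnd channels that also acts as a transcription factor, rose by 0.77, so that 3 of 9 tested auxiliary subunits were called.

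Of 22 tested Kv pore subunits, 8 rose and 2 fell in MG-cKO females. Kcnc1, whose channels let neurons fire at high rates, had 2.72, 1.77, 3.01 and 2.92 in MG-cKO females, against 1.62, 1.25, 1.07 and 1.23 in WT females, without overlap (adjusted p = 1.65e-05, limma). Kcnc1 and Kcnc4 rose by 0.87 and 0.85, while Kcnc2 had means of 1.45 ± 0.198 in MG-cKO females and 1.06 ± 0.124 in WT females and was not called. Kcna2, the pore of an axonal delayed rectifier, rose by 0.88 to a mean of 2.71 ± 0.619 in MG-cKO females, against 1.34 ± 0.272 in WT females. Both that fell were pore subunits, Kcna5 at 0.929 ± 0.0635 in MG-cKO females and 1.18 ± 0.0718 in WT females, and Kcnv2, an electrically silent subunit known from photoreceptors, at 1.26 ± 0.0484 in MG-cKO females and 1.47 ± 0.183 in WT females. The changes were -0.47 ± 0.09 and -0.34 ± 0.08 (SE), and the groups overlapped for Kcnv2 but not for Kcna5. Kcna5 would not have passed the filter if the WT female regions, the higher group here, or the BMM-cKO male regions were left out. With the compared groups alone Kcna5 was not tested.

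Calcium channel subunits also rose. Cacna1a, the pore of the P/Q-type channel of nerve terminals, had 2.98, 1.91, 2.90 and 2.90 in MG-cKO females, against 1.25, 1.15, 1.29 and 1.57 in WT females. The groups did not overlap, and the change was 0.88 ± 0.11 (SE, adjusted p = 5.38e-07, limma). It and the T-type subunit gene Cacna1i were the 2 of 8 tested alpha1 subunits that rose, and 3 of 4 beta subunits rose (Cacnb4, Cacnb3 and Cacnb1, by 0.78, 0.43 and 0.27). Among inward rectifiers 3 of 5 tested rose, Kcnj4 and Kcnj10 by 0.60 and 0.61, both with overlapping groups. Kcnj9, a subunit of G protein-gated channels, had 2.21, 1.68, 2.26 and 2.17 in MG-cKO females, against 0.954, 1.06, 0.946 and 1.09 in WT females, with no overlap and a change of 0.90 ± 0.10 (SE, adjusted p = 9.18e-08, limma). Kcnn2, a small-conductance calcium-activated channel gene, rose by 0.83, and Kcnk1, a leak channel gene, by 0.57.

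Markers of cell types and brain areas differed between the same regions. The 12 neuron markers summed to 57.6 to 101.7 in MG-cKO females, against 22.8 to 38.3 in WT females, and 12 of 12 were above 1.5 in MG-cKO females, against 8 in WT females. The 6 cortical excitatory neuron markers summed to 34.0 to 57.5 in MG-cKO females, against 8.20 to 11.2 in WT females, and 4 of the 6 were above 1.5 in MG-cKO females, against 3 in WT females. The 8 striatal markers went the other way, at 11.1 to 11.6 in MG-cKO females, against 16.7 to 32.9 in WT females, with 3 of 8 above 1.5 in MG-cKO females and 7 in WT females. The 18 microglia and macrophage markers summed to 20.2 to 21.6 in MG-cKO females, against 22.8 to 23.8 in WT females. Of these 18, 2 were above 1.5 in MG-cKO females and 7 in WT females. No marker of these lists was at 0, and their part in the channel changes was not tested.

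**Figure D3:**
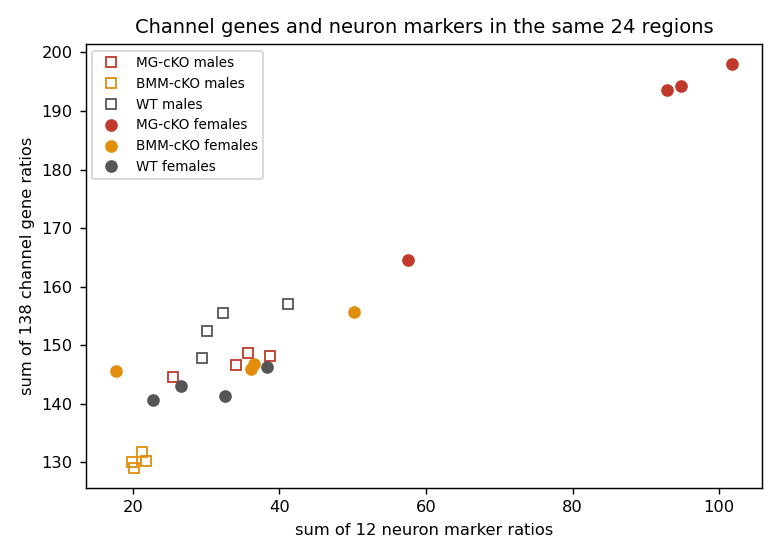
Sum of the ratios of the 138 channel genes (vertical axis) against the sum of the ratios of 12 neuron markers (horizontal axis) in each of the 24 regions, squares for males and circles for females. The MG-cKO female regions are at the upper right, with neuron sums of 57.6 to 101.7, and the BMM-cKO male regions at the lower left, with 19.9 to 21.9.

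The summed ratio of all 138 channel genes was 164.6 to 198.0 with MG-cKO, 145.6 to 155.7 with BMM-cKO and 140.6 to 146.2 in WT among females. In males it was 144.6 to 148.7 with MG-cKO, 129.1 to 131.8 with BMM-cKO and 147.8 to 157.1 in WT. Within MG-cKO females, the region with the lowest channel sum, 164.6, also had the lowest neuron marker sum, 57.6. In the plot of channel genes against neuron markers the MG-cKO female regions stand apart on both axes. The BMM-cKO male regions stand apart in channel sums only, since their neuron sums, 19.9 to 21.9, lie within the BMM-cKO female range of 17.8 to 50.2. The other groups overlap in their neuron sums. Since the regions come in groups, no correlation is given.

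In MG-cKO males against WT males, 1 of 66 tested channel genes rose and 0 fell by limma, and 8 had an unadjusted p under 0.05. Over all tested targets 0.441% rose and 0.0401% fell. Without the filter 1 of 138 rose and 0 fell, against 0.19% and 0.01% of all targets. The called gene was Kcnv2, with ratios of 1.02, 1.30, 1.30 and 1.26 in MG-cKO males, against 0.947, 0.945, 0.961 and 0.970 in WT males. The groups did not overlap, although all 4 WT values were just below the negative probe. The change was 0.36 ± 0.08 (SE, adjusted p = 0.0344, limma), and it was not called when any 1 of 6 of the 8 regions was left out (adjusted p 0.0647 to 0.128). Genes that rose in females were not called here, with Kcnab2 at 0.15 ± 0.11 and Scn8a at -0.12 ± 0.09 (SE). Scn8a stood at 1.24, 1.49, 1.37 and 1.24 in MG-cKO males, against 1.32, 1.52, 1.54 and 1.48 in WT males, and those groups overlapped. Neuron markers summed to 25.5 to 38.7 in MG-cKO males, against 29.5 to 41.2 in WT males, and thalamic and hypothalamic markers to 10.6 to 26.9 in MG-cKO males, against 5.98 to 10.2 in WT males. Their part in the Kcnv2 call was not tested.

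The MG-cKO effect in females exceeded that in males for 23 of 66 tested channel genes and was below it for 2 by the interaction test, against 14.2% and 12.8% of all tested targets. Without the filter the counts were 31 and 5 of 138, against 8.06% and 6.22% of all targets. The difference was 1.13 ± 0.13 for Scn8a and 1.05 ± 0.16 for Kcnn2 (log2, SE), with limma's adjusted p of 6.4e-07 and 5.53e-05. It was 1.18 ± 0.17 for Kcnab3, which passed the filter only through MG-cKO females, and 1.19 without the filter (adjusted p = 4.74e-06, limma). Kcnv2 and Kcna5 had differences of -0.70 ± 0.11 and -0.51 ± 0.12. Since each sex lay on a scan of its own, the interaction cannot be told apart from a difference between scans.

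In BMM-cKO males against WT males the direction was mostly down. Of the 66 tested channel genes 29 fell and 4 rose, while 25.7% of all tested targets fell and 27.8% rose. Without the filter 43 of 138 fell and 8 rose, against 20.3% and 24.1%. The median change was -0.22 over the 66 and -0.01 over all tested targets. On the ratio scale all BMM-cKO regions lay below all WT regions for 69 of the 138 and above them for 6, against 31.1% and 17.5% of all targets.

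Scn2b had 0.784, 0.717, 0.916 and 0.839 in BMM-cKO males, against 1.29, 1.16, 1.60 and 1.17 in WT males, with no overlap and a change of -0.65 ± 0.15 (SE, adjusted p = 0.000941, limma). Scn1a and Scn8a fell by 0.56 and 0.48 on the log2 scale.

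Among Kv pore subunits, 9 of 22 fell and 2 rose. Kcnc1 had 1.04, 1.08, 1.00 and 1.22 in BMM-cKO males, against 1.48, 1.55, 1.95 and 1.88 in WT males, with no overlap and a change of -0.63 ± 0.14 (SE, adjusted p = 0.000307, limma). Kcnip2, an auxiliary subunit of Kcnd channels, fell by 0.46, as 1 of 4 auxiliary subunits that fell of 9 tested.

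Cacna2d2, the only alpha2delta gene tested, fell by 0.45, and 2 of 8 calcium alpha1 subunits (Cacna1f and Cacna1c) and 2 of 4 calcium beta subunits fell. Both tested activated potassium channel genes, Kcnn2 and Kcnt1, fell, as did 2 of 3 leak and 2 of 5 inward rectifier genes. Kcnk13, the leak channel of microglia, was 1 of these, at 0.995 ± 0.0460 in BMM-cKO males and 1.25 ± 0.143 in WT males (SD, n = 4 each), both under 1.5. Cacna2d2, Kcnt1 and Kcnk13 would not have passed the filter if the WT male regions, the higher group here, were left out of its mean. In the test without the filter Kcnt1 changed by -0.30 (adjusted p = 0.018, limma). Cacna2d2 did not pass the filter without WT male region 2 or 3.

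Those that rose included Kcnv2, Cacna1b and Kcne1. Kcnv2 had 1.56, 1.67, 1.48 and 1.47 in BMM-cKO males, against 0.947, 0.945, 0.961 and 0.970 in WT males, without overlap and with a change of 0.71 ± 0.08 (SE, adjusted p = 6.57e-08, limma). Cacna1b, the pore of the N-type channel, and Kcne1, a small auxiliary subunit, rose by 0.24 and 0.20. Their means in BMM-cKO males, 1.21 ± 0.0455 and 1.31 ± 0.0369, stayed under 1.5. The calls of Cacna1b and Kcne1 were each lost when any 1 of 6 of the 8 regions was left out.

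Neuron markers summed to 19.9 to 21.9 in BMM-cKO males, against 29.5 to 41.2 in WT males, with 7 of 12 above 1.5 in BMM-cKO males, 11 in WT males and none at 0. The oligodendrocyte markers summed to 8.39 to 14.3 in BMM-cKO males, against 13.7 to 21.7 in WT males, and the microglia and macrophage markers to 22.2 to 23.4 in BMM-cKO males, against 22.9 to 27.1 in WT males. The BMM-cKO male regions held 6672788 to 10779960 tags, against 1839154 to 4589359 in WT males. The part of markers and depth in the channel changes was not tested.

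Of the 27 channel genes that rose in MG-cKO females and the 29 that fell in BMM-cKO males, comparisons with no region in common, 16 were the same, 59.3% of the first list and 55.2% of the second. Over all tested targets 1035 of the 1787 that rose in MG-cKO females were among the 2568 that fell in BMM-cKO males, 57.9% of the first and 40.3% of the second. They included Scn8a, Scn1a, Scn2b, Kcnab2, Kcnc1, Kcnc4 and Kcnj9. Neuron marker sums were highest in MG-cKO females and lowest in BMM-cKO males among the 6 group means, and whether this accounts for the shared genes was not tested.

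In BMM-cKO females against WT females, 3 of 66 tested channel genes fell and 0 rose by limma, and 11 had an unadjusted p under 0.05. Over all tested targets 0.992% fell and 1.35% rose. Without the filter 4 of 138 fell and 0 rose, against 0.321% and 0.431%. Kcnj4, an inward rectifier of forebrain neurons, had 1.03, 1.07, 1.16 and 1.02 in BMM-cKO females, against 1.14, 1.47, 1.45 and 1.96 in WT females. The groups overlapped through 1 WT region, and the change was -0.54 ± 0.13 (SE, adjusted p = 0.0284, limma). Kcnab1, a beta subunit of Kcna channels, had 0.886, 1.54, 1.19 and 1.07 in BMM-cKO females, against 1.39, 1.67, 1.44 and 1.77 in WT females, and Kcnip2 had 1.45, 1.30, 1.25 and 1.52 in BMM-cKO females, against 1.41, 1.95, 1.63 and 2.16 in WT females. Both pairs overlapped, with changes of -0.51 ± 0.14 and -0.43 ± 0.11 (SE, adjusted p = 0.0407 and 0.0307, limma). All 3 calls were lost when WT region 2 or 4 was left out (adjusted p 0.0747 to 0.14, limma), and when only the BMM-cKO and WT female regions entered the fit (0.178 to 0.241). Leaving out other regions also cost calls, with 12 losses among the 3 genes over all fits that left out 1 region. In these regions the striatal markers, which hold Penk and Ppp1r1b, summed to 10.9 to 19.6 in BMM-cKO females, against 16.7 to 32.9 in WT females, with 5 of 8 above 1.5 for BMM-cKO, against 7 for WT. The highest BMM-cKO sum was that of region 3, and its other regions summed to 10.9 to 12.3. In region 3 Ppp1r1b was 9.24, Penk 2.44 and the choroid plexus gene Ttr 361.1. WT regions 2 and 4 had the highest Penk ratios, 8.25 and 10.8, and the part of these markers in the calls was not tested.

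The BMM-cKO effect in females exceeded that in males for 19 of the 66 tested channel genes and was below it for 3, against 21.5% and 24.2% of all tested targets. Without the filter the counts were 19 and 11 of 138, against 14.8% and 18.9% of all targets. The differences were 0.74 ± 0.15 for Scn1a and 0.70 ± 0.14 for Kcnj9 (log2, SE, adjusted p = 0.000214 and 0.000242, limma), and -0.86 ± 0.11 for Kcnv2 in the other direction. Without WT female region 4 the count of calls in either direction was 14, against 22 with it. Scan and sex cannot be told apart here.

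The MG-cKO and BMM-cKO regions were also compared with each other. In males, 18 of 66 tested channel genes were higher in MG-cKO than in BMM-cKO regions and 1 was lower, against 18.1% and 20.4% of all tested targets. In females the counts were 29 and 1, against 11% and 3.54%. Without the filter they were 24 and 3 of 138 in males, against 11.7% and 16.5% of all targets, and 42 and 0 in females, against 6.48% and 1.47%. Neuron markers summed to 25.5 to 38.7 in MG-cKO and 19.9 to 21.9 in BMM-cKO among males, and to 57.6 to 101.7 in MG-cKO and 17.8 to 50.2 in BMM-cKO among females, without overlap in either sex, and their part was not tested. Scn8a was higher in MG-cKO than BMM-cKO regions by 0.36 ± 0.09 in males and by 1.13 ± 0.09 in females (log2, SE, adjusted p = 0.00313 and 3.26e-10, limma). Scn2b had 1.33, 1.29, 1.28 and 1.38 in MG-cKO males and 0.784, 0.717, 0.916 and 0.839 in BMM-cKO males, without overlap. Kcnj10 differed by 0.70 ± 0.20 in females (SE, adjusted p = 0.0188, limma), with overlapping groups. In the filtered test Kcnv2 was the 1 gene lower in males (-0.36) and Kcna5 the 1 lower in females (-0.27). The Kcna5 call was lost on the negative probe scale (adjusted p = 0.0906), without the filter (0.068) and in 4 of the 8 fits that left out 1 region (0.072 to 0.126), all by limma, and Kcna5 did not pass the filter with these groups alone. Other genes higher in MG-cKO females included Kcnab3 (1.19), Kcnj4 (1.13) and Kcnab2 (1.10). Kcnab3 passed the filter only through the MG-cKO female regions, and without the filter its change was 1.21 (adjusted p = 9.16e-10, limma). These comparisons use the same knockout regions as those against WT.

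Between the sexes, changes are given as males over females and cannot be told apart from scan. In WT regions, 11 of 66 tested channel genes were higher in males and 4 lower, against 16.3% and 23.2% of all tested targets. Without the filter 19 were higher and 18 lower of 138, against 15.1% and 19.9%. In MG-cKO regions 4 were higher and 29 lower, against 6.06% and 13.7%. Without the filter these were 6 and 44, against 5.61% and 12.4%, on the negative probe scale 1 and 38 of 66, and on the deposited scale 27 and 17. In BMM-cKO regions 1 was higher and 6 lower, against 5.66% and 11.2%, and without the filter 1 and 7, against 1.9% and 5.69%. With the filter, 17 were called in either direction without BMM-cKO female region 3, against 7 with it. Scn1a had 1.67, 1.51, 1.32 and 1.502 in WT males and 1.09, 0.958, 1.08 and 1.03 in WT females, without overlap (0.54 ± 0.10, SE, adjusted p = 0.000185, limma). Kcnc1 was also higher in WT males, at 1.72 ± 0.232, against 1.29 ± 0.234 in WT females, with overlapping groups, a call lost without WT female region 3 (adjusted p = 0.0618, limma). In MG-cKO regions Kcnab2 was lower in males by 1.07, and Scn9a, a sodium alpha subunit of sensory neurons, was higher by 0.42. In BMM-cKO regions Cacna1f was lower in males by 0.51. Kcnv2 was lower in WT males (-0.59 ± 0.08) and higher in BMM-cKO males (0.27 ± 0.08) than in females of the same genotype. The second call was lost on the negative probe scale (adjusted p = 0.188), without the filter (0.055), and without BMM-cKO male region 2 or female region 4 (0.0578 and 0.0613), all by limma. The neuron marker sum was 29.5 to 41.2 in WT males and 22.8 to 38.3 in WT females, with overlap, while the striatal sum was 10.1 to 11.1 in WT males and 16.7 to 32.9 in WT females, without overlap, and their part was not tested.

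A list of 25 genes that encode partners of these channels, among them anchoring proteins, fibroblast growth factor homologues and calcium-binding proteins, had 21 tested members. In MG-cKO females 10 rose and 1 fell against WT, where 17.9% of all tested targets rose and 11.9% fell, with a median change of 0.19, against -0.02 over all tested targets. Without the filter 11 of 25 rose and 0 fell. Pex5l, which binds pacemaker channels, had 2.44, 1.86, 2.27 and 2.16 in MG-cKO females, against 1.04, 0.778, 0.892 and 0.756 in WT females, without overlap. It passed the filter only through the MG-cKO female regions, and in the test without the filter it rose by 1.22 (adjusted p = 1.31e-07, limma). Cabp1, a calcium-binding regulator of calcium channels, rose by 0.91, and Ank3 and Sptbn4, which anchor channels at the axon initial segment, by 0.69 and 0.56. The 1 called lower was Rem2, an inhibitor of calcium channels (-0.22, adjusted p = 0.0449, limma), with overlapping groups, and it was not called without the filter (0.121) or on the negative probe scale (0.439). In BMM-cKO males 5 fell and 2 rose, where 25.7% of all tested targets fell and 27.8% rose, so the share that fell was near that of all targets. Their median change was -0.18, and without the filter 2 of 25 fell, 6 rose and the median was 0.03, so the direction of the list depended on the filter. Nalcn, a sodium leak channel, was at -0.53 and Rimbp2, which tethers calcium channels at release sites, at 0.65. In MG-cKO males 0 were called by limma and 3 had an unadjusted p under 0.05. In BMM-cKO females 1 was called lower, against 0.992% of all tested targets, the kinase anchor Akap5 (-0.33, adjusted p = 0.0369, limma), and it was not called without the filter (0.065) or on the negative probe scale (0.114).

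Some channel genes stood out in a single region. Kcnj13, Kcne2 and Scn4b fall outside the naming rule and were chosen after their values were seen. Kcnj13, an inward rectifier of choroid plexus and retinal pigment epithelium, had 1.15, 0.965, 5.29 and 0.979 in BMM-cKO females, while the other groups had means of 1.02 ± 0.0949 with MG-cKO, 0.935 ± 0.0367 with BMM-cKO and 0.988 ± 0.0972 in WT among males, and 1.02 ± 0.172 with MG-cKO and 0.948 ± 0.0420 in WT among females (SD, n = 4 each). Region 3 alone was above background. Kcne2, an auxiliary subunit also known from choroid plexus, had 0.970, 0.784, 4.02 and 0.968 in the same regions, and Kcnk1 1.32, 1.11, 2.73 and 1.01. In region 3 the choroid plexus genes Ttr and Enpp2 had ratios of 361.1 and 104.1, whereas in the other 3 BMM-cKO female regions Ttr was 1.06 to 1.35. Neuron markers summed to 17.8 in that region, the lowest of all 24.

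Scn4b, a sodium beta subunit known for its high level in striatal neurons, did not pass the filter. It had 0.965, 1.77, 1.26 and 2.30 in WT females, against at most 1.65 in any other region. Its order within WT females, with region 4 highest and region 1 lowest, was also that of Penk (4.80, 8.25, 6.67 and 10.8) and Ppp1r1b (2.20, 5.33, 4.43 and 7.39). These are values of 4 regions, given without a test.

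**Figure D4:**
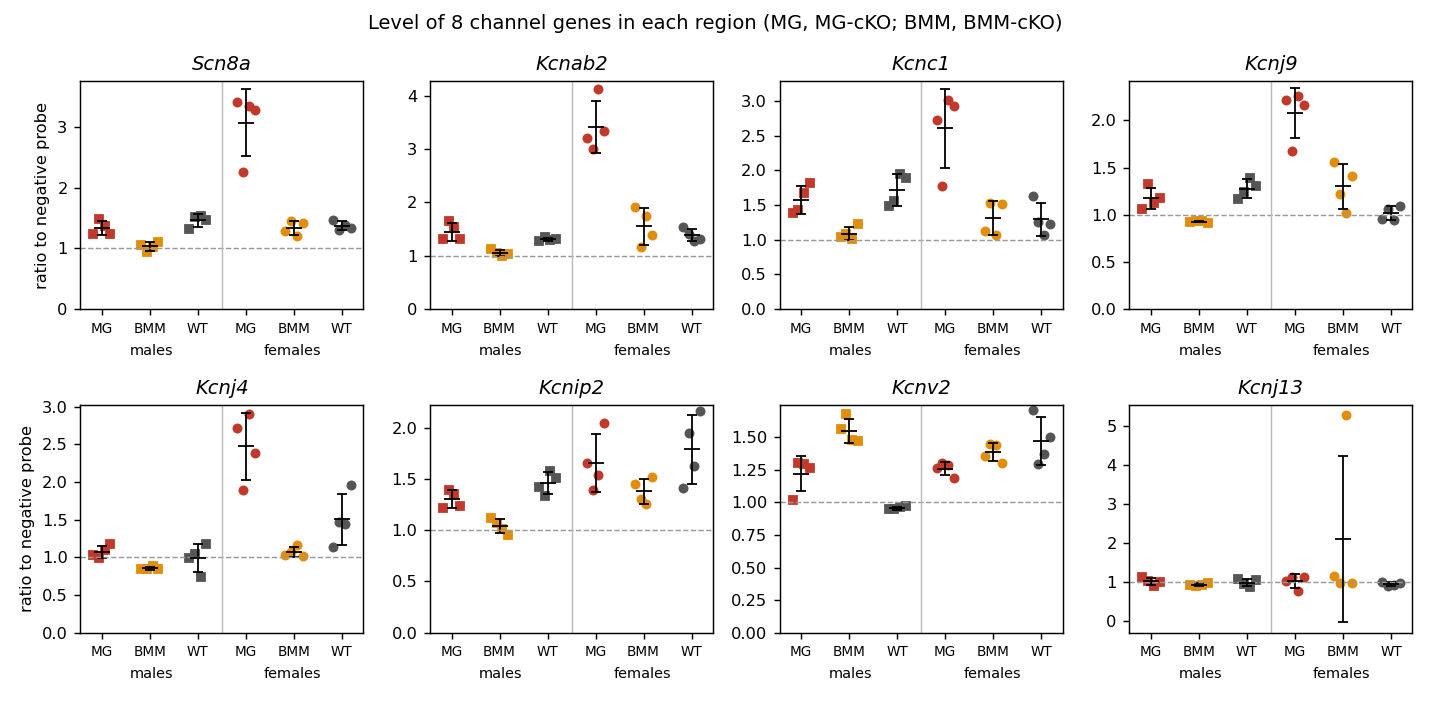
Ratio to the negative probe (vertical axis, dashed line at 1) of 8 channel genes in each region by group, squares for males and circles for females, with group mean and SD (n = 4). The means of Scn8a, Kcnab2, Kcnc1, Kcnj9 and Kcnj4 are highest in MG-cKO females, and Kcnj13 is high in 1 BMM-cKO female region.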

How the data were processed

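RNA targets of 24 brain regions were read as barcode tags by Illumina sequencing, per the labels' protocols. The deposited values are a signal per target, and the file headers give 1 column per region. In these values 99.98% of entries were whole multiples of 1 factor per region (within 0.01), and the geometric mean over targets was equal within a group and differed between groups (105.9 to 388.2). The counting and normalization software is not given in the sources used here.

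Levels are ratios to the negative probe of the same region. For tests, log2(value + 1) was centred on the median target of each region, and a filter kept the 9981 of 19962 targets above the median mean level. limma 3.58.1 (R 4.3.3, lmFit and eBayes with trend) fitted 6 group coefficients over 24 regions, with Benjamini-Hochberg adjustment over all tested targets and a threshold of 0.05, for 11 comparisons. On simulated data for MG-cKO females against WT females (10005 targets), 35.6% of changes of 0.3, 100% of changes of 1 and 94.9% of changes of 1.5 were recovered. Of 9805 unchanged targets 14 were called. The simulated noise was independent between targets, without shifts in cell content, so these rates need not hold for the real regions. The 36 pairs of regions within groups differed by more than counting error (chi-square per degree of freedom 1.14 to 18.8), so every region counted as 1 replicate. A genotype-named table of 12 columns was not used.

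The members and lists were chosen with earlier results of these data known. Named were the channel genes with a mean ratio above 1.5, the 2 nearest on each side of it, and up to 10 called higher and 10 lower in each comparison. Some of these genes are not reported here, and counts over the list include them. Alternatives were the deposited scale, the negative probe scale, quantile normalization, a pseudocount of 50, no filter, the compared groups alone and leaving out each region.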

Additional observations from a re-analysis of the deposited data

Results flagged for a closer look

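The ratio of 1 region stood far from the other 3 of its group in 7 of 90 groups of values examined, and chance alone flags about 1 in 20. Kcnj13 was 5.29 in BMM-cKO female region 3. Scn8a and Cacna1a were low in MG-cKO female region 2, at 2.26 and 1.92. Cacna1c stood at 1.84 in 1 WT female region, Kcna2 at 1.21 in 1 MG-cKO male region and Kcna3 at 1.56 in 1 BMM-cKO male region. The number of channel genes above 1.5 was 0 in 1 BMM-cKO male region.

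The knockout effect differed between the sexes by the interaction test for the following genes, as the effect in females minus that in males on the log2 scale. For MG-cKO it was 1.18 in Kcnab3, 1.13 in Scn8a, 1.05 in Kcnn2, 1.01 in Kcnab2, 1.01 in Kcnj9, 0.98 in Kcnc1 and 0.94 in Scn1a. Kcnab3 passed the filter only through the MG-cKO female regions, and without the filter its difference was 1.19. For BMM-cKO it was -0.86 in Kcnv2, 0.74 in Scn1a, 0.70 in Kcnj9, 0.63 in Kcnk1, 0.58 in Kcnc1, 0.53 in Cacna1g, 0.51 in Scn2a, 0.49 in Kcnn2 and 0.49 in Kcnh7. Of these 9 genes named for BMM-cKO, 3 lost their call in some fits that left out 1 region, with 27 such losses in all. Sex and scan cannot be told apart in these values.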

How the results depend on the processing

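Values near background limit these results, as most channel genes lay within 1.5 times the negative probe. On the deposited scale, whose factor per group shifts the median tested target against WT by 0.32 (MG-cKO males), 0.30 (MG-cKO females), 1.49 (BMM-cKO males) and 0.64 (BMM-cKO females), calls follow that shift. There, higher counts were 33 and 55 for MG-cKO males and females and 66 and 62 for BMM-cKO males and females, all 4 lower counts were 0, and MG-cKO over BMM-cKO males had 0 higher and 66 lower, and females 22 higher and 25 lower. Males over females gave 54 calls in WT (53 higher, 1 lower), 44 in MG-cKO (27 higher, 17 lower) and 66 in BMM-cKO (all higher), and the BMM-cKO interaction 54 (all lower).

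Directions turned on that scale, with the median moved by -1.18 for MG-cKO over BMM-cKO males and by 0.34 in WT and 1.22 in BMM-cKO for males over females. In BMM-cKO males against WT males the values became 0.85 for Scn2b, 0.87 for Kcnc1, 0.94 for Scn1a, 1.02 for Scn8a, 1.03 for Kcnip2 and 1.05 for Cacna2d2. In BMM-cKO females they became 0.10 for Kcnj4, 0.13 for Kcnab1 and 0.21 for Kcnip2. For MG-cKO over BMM-cKO males they became -0.50 for Scn2b, -0.67 for Kcnc1, -0.75 for Kcnab2, -0.81 for Scn1a, -0.82 for Kcnc2, -0.83 for Scn8a, -0.86 for Kcnj9 and -0.88 for Kcnk9. For males over females they became 0.12 for Kcnq3 in WT, and 0.70 for Cacna1f, 0.78 for Kcnab2, 0.85 for Kcnj9, 0.90 for Cacna1c and 0.94 for Scn8a in BMM-cKO. For the BMM-cKO interaction they became -0.12 for Scn1a, -0.15 for Kcnj9, -0.23 for Kcnk1, -0.28 for Kcnc1, -0.33 for Cacna1g, -0.35 for Scn2a, -0.37 for Kcnn2 and -0.37 for Kcnh7.

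On the negative probe scale, higher counts were 0 for the MG-cKO and 2 for the BMM-cKO males, lower counts 1 for each knockout in females and 0 for MG-cKO over BMM-cKO females, and males over females in BMM-cKO gave 17 calls. With a pseudocount of 50, 0 rose in MG-cKO males. Without the filter 4 fell in MG-cKO females, 8 rose in BMM-cKO males, 3 and 0 were lower for MG-cKO over BMM-cKO in males and females, and males over females gave 37 calls in WT and 50 in MG-cKO. With the compared groups alone, 0 rose in MG-cKO males, 1 fell in MG-cKO females, 0 fell in BMM-cKO females, 2 and 0 were lower for MG-cKO over BMM-cKO in males and females, and males over females gave 31 calls in WT. The cause of these moves was not tested.

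Leaving out 1 region, the higher count was 0 to 1 for the MG-cKO males, 2 to 3 for the BMM-cKO males and 0 to 2 for the BMM-cKO females (2 without BMM-cKO region 3). The lower count was 2 to 5 in MG-cKO females (5 without MG-cKO region 2, 4 without region 4), 0 to 4 in BMM-cKO females (0 without WT region 2 or 4, 1 without BMM-cKO region 4) and 0 to 2 for MG-cKO over BMM-cKO females. Males over females in BMM-cKO gave 5 to 17 calls (17 without female region 3), and the BMM-cKO interaction 14 to 27. In that interaction Kcnk1 was 0.32 without BMM-cKO female region 3 and Cacna1g 0.30 without region 4. All 10 channel genes named in MG-cKO females, and all 7 of the MG-cKO interaction, kept their call in every fit that left out 1 region. Cacna1b and Kcne1 in BMM-cKO males each lost it in 6 such fits.

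With a channel gene required above 1.5 in every region, the counts were 1 with MG-cKO, 0 with BMM-cKO and 4 in WT among males, and 2 each with BMM-cKO and in WT among females. Against the median target in place of the negative probe, MG-cKO males had 1. The planned edgeR test was not run, since the values could not be taken as whole counts. No paired analysis was possible because the replicate numbers follow only the order of the samples.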
